A study of Homo sapiens with 10 samples.

Results

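Thyroglobulin and 9 genes whose products take it up or cut it were followed through the differentiation of human embryonic stem cells into thyroid organoids. The 10 genes, taken by their symbols from the 28265 gene symbols counted, were thyroglobulin itself (TG), 6 lysosomal proteases (CTSB, CTSD, CTSK, CTSL, CTSS and LGMN) and 3 cell surface or sorting receptors (LRP2, SORL1 and ASGR1). RNA was measured by bulk RNA-seq in cells sorted for green fluorescence from the NKX2-1 locus, at about 10000 cells a sample, with 2 libraries at each of days 16, 23, 31, 38 and 45. All 10 genes had enough counts to be tested.

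Every library came from 1 genetically modified line, ESIBIe003-A-6, in which a fluorescent reporter sits at an NKX2-1 allele and doxycycline switches on NKX2-1 and PAX8 transgenes. All cells had received the doxycycline pulse, so RNA of the transgenes and of the endogenous NKX2-1 and PAX8 genes cannot be told apart in these counts. The study's own expression measurements had RNA of both transgenes back at the level of cells without doxycycline before day 16. The labels give c-AMP for days 16, 23 and 31, TSH DEX for day 38 and TSH SB for day 45, where TSH is recombinant thyrotropin, DEX is dexamethasone and SB is SB431542, an inhibitor of the TGFβ receptor. By the study's methods, the day 16 cells had still been in basal medium, and the day 45 medium held TSH and dexamethasone together with SB431542. The study's account also puts the change from cAMP to TSH and dexamethasone just before day 31 and the addition of SB431542 around day 38, so the day 31 libraries, labelled c-AMP, may follow the change, and the day 38 libraries may have had SB431542. The step from day 31 to 38 is therefore one between labels, and not for certain the change of medium itself. Day and medium changed together and cannot be told apart, and cells kept in cAMP to days 38 and 45 were not analysed here. The counted totals ran from 7247268 to 10333933 reads a library, and 3 counts, taken as the floor, equal 0.290 to 0.414 CPM (counts scaled to library size). In sorted bulk samples, fewer cells of a type and less RNA per cell cannot be told apart.

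Thyroglobulin is the large glycoprotein on which thyroid hormone is made. The thyrocyte folds it in the endoplasmic reticulum, secretes it into the follicle lumen, where its tyrosines are iodinated, and later takes it back from the lumen. Cathepsins B, D, K, L and S and legumain (LGMN) are lysosomal proteases that act on thyroglobulin, and megalin (LRP2), SORL1 and the asialoglycoprotein receptor subunit ASGR1 are receptors able to bind it. TSH, through cAMP, stimulates both the making and the uptake of thyroglobulin in the gland.

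Within libraries, TG went from among the least to the most abundant of the 10 genes per transcript length. In CPM, TG rose on days 23, 38 and 45, CTSB rose with it on days 23 and 38, LRP2 rose on day 38, and SORL1 fell from day 16 to day 23. CTSD, CTSL and LGMN moved in different directions, by 0.75 or less on the log2 scale at the steps where they passed the test, and CTSS passed it only over the whole course. Over the 5 days, 9 of the 10 genes passed edgeR's quasi-likelihood test at an adjusted p under 0.05, CTSK being the exception (edgeR adjusted p = 0.742), and 36.3% of the 21014 genes tested passed the same test. The plot of CPM by day shows each library.

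**Figure D1:**
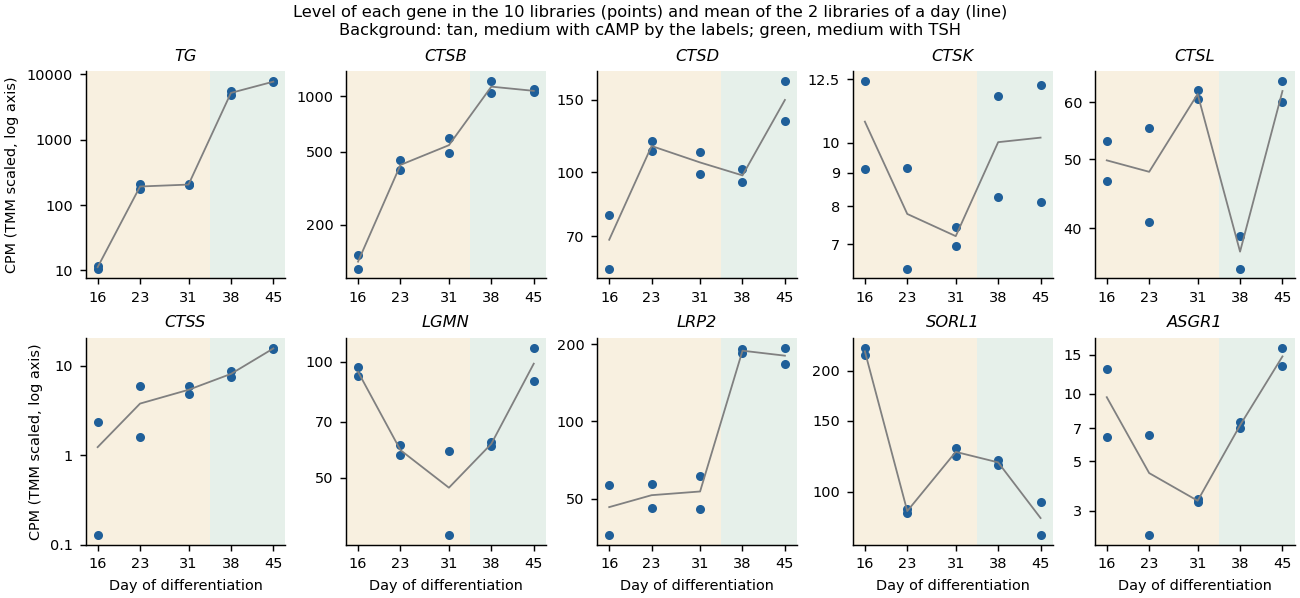
CPM scaled by TMM factors (log axis, a different range in each panel) against the day of differentiation for the 10 genes. Points are the 10 libraries and lines join the means of the 2 libraries of a day. Background colours give the medium by the labels, cAMP for days 16 to 31 and TSH for days 38 and 45. TG climbs in a pair of steps, from 10.6 and 11.7 CPM on day 16 to 7961 and 7523 CPM on day 45, with a flat stretch between days 23 and 31.

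TG (chr8:132866958-133134903, plus strand, GRCh38, protein coding) had 84 and 95 reads in the day 16 libraries, or 10.6 and 11.7 CPM. It stood at 207 and 178 CPM on day 23 and at 199.8 and 211 CPM on day 31. In the libraries labelled TSH it reached 5545 and 4874 CPM on day 38 and 7961 and 7523 CPM on day 45. Days 16, 38 and 45 overlapped with no other day, while the libraries of days 23 and 31 overlapped. The log2 fold change was 4.10 ± 0.13 (SE, n = 2 against 2) from day 16 to 23, with an edgeR adjusted p of 2.7e-22. From day 23 to 31 it was 0.10 ± 0.10, which was not called (edgeR adjusted p = 0.807). Between the day 31 and day 38 libraries it was 4.66 ± 0.12 (edgeR adjusted p = 2.4e-25). A smaller increase of 0.57 ± 0.10 (edgeR adjusted p = 0.000121) separated day 45 from day 38. Between the first and the last day TG differed by 9.43 ± 0.15 on the log2 scale, a fitted fold of 692. By count, TG ranked 10565th and 10043rd among all genes in the day 16 libraries, 7th in both day 38 libraries and 5th and 6th on day 45. The share of the reads of the 10 genes that came from TG went from 1.62 and 1.87% on day 16 to 82.1 and 82.2% on day 45.

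The TG locus holds other transcribed genes, and their counts rose as well. SLA, an adaptor protein gene that lies inside TG on the opposite strand and shares no exon with it in GENCODE, had 26 and 13 reads on day 16 and 884 and 1512 reads on day 45. PTCSC1, a long non-coding RNA gene within TG on the same strand, had 2 and 0 reads on day 16 and 527 and 787 reads on day 45. Both stayed far below TG on day 45, where SLA amounted to 1.61 and 2.19% and PTCSC1 to 0.961 and 1.14% of the TG count. The strand setting of the counting is not given in the sources used here, so the values of SLA and PTCSC1 are uncertain where reads of unspliced TG could have been assigned to them.

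CTSB encodes cathepsin B, a cysteine protease with both endopeptidase and carboxydipeptidase activity, and it was the most abundant of the 6 proteases from day 23 on. Its CPM (chr8:11842524-11869533, minus strand) was 137 and 116 on day 16, 449 and 398 on day 23, and 493 and 591 on day 31. The later libraries held 1211 and 1042 CPM on day 38 and 1088 and 1049.9 CPM on day 45. Each day labelled c-AMP lay above the one before with no overlap, day 38 lay above day 31, and days 38 and 45 overlapped. The log2 fold change was 1.75 ± 0.13 (SE, n = 2 against 2) on day 23 against 16 (edgeR adjusted p = 2.5e-12) and 1.06 ± 0.12 on day 38 against 31 (edgeR adjusted p = 4.3e-08). The intermediate difference of 0.36 ± 0.12 between days 31 and 23 was not called (edgeR adjusted p = 0.153), nor was that of -0.08 ± 0.12 between days 45 and 38 (edgeR adjusted p = 0.786). TG and CTSB therefore shared the days at which they passed the test, except the last step. The size of the steps differed: TG changed by 4.66 and CTSB by 1.06 on the log2 scale between days 31 and 38.

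CTSD encodes cathepsin D, the aspartic protease of the set. Its libraries held 78.8 and 58.5 CPM on day 16, 119 and 112 on day 23, 99.2 and 112 on day 31, 102 and 94.9 on day 38, and 166 and 133 on day 45. Both day 16 libraries were the lowest and both day 45 libraries the highest, with the 3 days between them close together. CTSD rose by 0.75 ± 0.17 on the log2 scale from day 16 to 23 (edgeR adjusted p = 0.00177) and by 0.61 ± 0.16 from day 38 to 45 (edgeR adjusted p = 0.0111). In GENCODE its exons (chr11:1752752-1764573, minus strand) share 1304 bases with another gene model on the same strand and 1331 bases with the antisense gene PRADX, neither of which is among the symbols counted, so the CTSD values are uncertain to that extent.

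CTSL and LGMN each had a dip with a return. From day 38 to 45, when both rose, some markers of myeloid and mesenchymal cells rose as well, as given below. CTSL, which encodes the cysteine protease cathepsin L, stood at 46.6 and 52.9 CPM on day 16, 40.8 and 55.2 on day 23, 62.5 and 60.7 on day 31, 39.1 and 35.2 on day 38, and 64.3 and 60.2 on day 45. Both day 38 libraries were below all others. It fell by 0.73 ± 0.21 (log2, SE) from day 31 to 38 (edgeR adjusted p = 0.0121), when TG and CTSB rose, and rose by 0.74 ± 0.21 from day 38 to 45 (edgeR adjusted p = 0.0139). Leaving out any 1 of the day 31 or day 38 libraries ended the first of these calls, with values from -0.81 to -0.66 over all libraries left out in turn. LGMN, an asparagine-specific protease that also processes other cathepsins, held 96.7 and 91.7 CPM on day 16, 60.8 and 57.3 on day 23, 35.5 and 58.9 on day 31, 60.7 and 61.9 on day 38, and 109 and 89.0 on day 45. The first and the last day overlapped and lay above the 3 days between them. LGMN fell by 0.67 ± 0.20 from day 16 to 23 (edgeR adjusted p = 0.0194), a call that ended without day 16 replicate 1 or either day 23 library, and rose by 0.69 ± 0.20 from day 38 to 45 (edgeR adjusted p = 0.0159). The day 45 increases of CTSD, CTSL and LGMN all missed the threshold without day 38 replicate 1, day 38 replicate 2 or day 45 replicate 1, with log2 values that stayed between 0.44 and 0.83 whichever library was left out.

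CTSS and CTSK were the proteases with the lowest counts. Cathepsin S is best known from antigen-presenting cells, and the CTSS count was 1 and 19 reads on day 16, 54 and 14 on day 23, 58 and 42 on day 31, 69 and 76 on day 38, and 106 and 147 on day 45. In CPM these were 0.127 and 2.34, 5.98 and 1.60, 5.93 and 4.89, 7.45 and 8.85, and 15.4 and 16.1. Libraries of days 16 and 23 overlapped, as did those of days 23 and 31, and day 45 lay above all others. No single step passed the test, while day 45 against day 16 did at 3.65 ± 0.73 (log2; edgeR adjusted p = 0.000215). The size of that difference rested on the day 16 libraries, as it was 6.80 without day 16 replicate 2. Without the same library the day 23 against day 16 difference of 1.60 became 4.76 and passed the test. Cathepsin K is known from bone resorption by osteoclasts, and CTSK ran from 6.43 to 12.4 CPM with overlapping libraries at most steps and no call in any comparison.

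Macrophages and osteoclasts are rich sources of CTSS and CTSK, so the markers of these cells stand beside them. The 9 myeloid markers summed to 30.2 and 14.6 CPM on day 16, 7.20 and 11.0 on day 23, 17.7 and 17.9 on day 31, 16.3 and 8.61 on day 38, and 81.3 and 69.1 on day 45. CD68, a lysosomal glycoprotein of macrophages, was the most abundant at 36.4 and 35.9 CPM on day 45, and CD68, CD14, CSF1R and ITGAM rose from day 38 to 45, with 2 called at that step without either day 38 library. CD14 and CSF1R had fallen on day 38 against 31, CD14 to no read in either library. The list had fewer calls at that step when any 1 library of day 31 or day 38 was left out. On day 45 against 16, where CTSS passed the test, CD68, LYZ and ITGAM rose, by 1.58, 9.32 and 6.89 on the log2 scale. LYZ had 0 and 0 reads and ITGAM 2 and 0 reads on day 16, so the size of their changes depends on the prior count. None of the 7 markers tested fell there, and CD14 and CSF1R were not called. All genes gave 12.9% higher and 11.7% lower at that comparison, 8.8 and 6.23% on day 38 against 31, and 4.85 and 6.35% on day 45 against 38. At the earlier steps, CD68 alone was called on day 23 against 16, lower (log2 -2.07), beside 5.6 and 5.33% of all genes. LYZ alone was called on day 31 against 23, higher, beside 1.58 and 0.666%. AIF1 was at or under 3 counts in every library, TYROBP at 0 in all but 1 day 45 library, and PTPRC, which encodes the pan-leukocyte antigen CD45, at 8.11 and 2.09 CPM on day 16 and 0.581 and 0 CPM on day 45. None of the markers was at 0 in all libraries. The 5 osteoclast markers, led by TNFRSF11A, summed to between 3.20 and 15.5 CPM, and edgeR called none of the 3 tested at any step, while on day 38 against 31 DESeq2 called 1, as did edgeR without either day 23 library and with only the libraries compared. The part of such cells in the values of CTSS and CTSK, or of CTSD, CTSL and LGMN, was not tested.

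Among the receptors, LRP2 carried the clearest change. LRP2 encodes megalin, a very large endocytic receptor of absorptive epithelia (chr2:169127109-169362534, minus strand), and held 36.0 and 56.8 CPM on day 16, 57.2 and 46.1 on day 23, and 45.6 and 61.1 on day 31. The libraries labelled TSH gave 185.5 and 192 CPM on day 38 and 194 and 167 CPM on day 45. All 6 libraries of days 16 to 31 overlapped and lay below the 4 libraries of days 38 and 45, which overlapped in turn. The only step that passed the test was day 38 against 31, at 1.82 ± 0.19 in log2 (edgeR adjusted p = 2.5e-09). Thus LRP2 showed the day 38 increase of TG and CTSB without their day 23 increase, where its log2 fold change was 0.15 ± 0.19 (edgeR adjusted p = 0.697).

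SORL1 encodes a sorting receptor of the VPS10 family that moves between the Golgi and endosomes (chr11:121452314-121633763, plus strand). Its CPM was 228 and 219 on day 16, 88.5 and 90.3 on day 23, 128 and 123 on day 31, 119.6 and 117 on day 38, and 77.8 and 94.0 on day 45. The day 16 libraries were the highest by far, and day 45 overlapped with day 23 alone. The log2 fold change was -1.32 ± 0.15 on day 23 against 16 (edgeR adjusted p = 3.9e-08) and 0.49 ± 0.15 on day 31 against 23, which just missed the threshold (edgeR adjusted p = 0.0728) and passed it without either day 16 library. A fall of 0.46 ± 0.15 from day 38 to 45 passed the test (edgeR adjusted p = 0.0360) but not with library totals or upper-quartile factors as the scaling, nor without day 38 replicate 1, day 38 replicate 2 or day 45 replicate 1. ASGR1 (chr17:7173431-7179564, minus strand), whose product binds glycoproteins that have lost sialic acid and is best known from hepatocytes, held 12.9 and 6.40 CPM on day 16, 2.33 and 6.51 on day 23, 3.27 and 3.37 on day 31, 7.02 and 7.45 on day 38, and 16.1 and 13.3 on day 45. Day 45 was the highest and overlapped with no other day, while days 16 and 23 overlapped. It differed over the 5 days (edgeR adjusted p = 0.00987), with no single step called.

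Hepatocyte and proximal tubule markers were read beside ASGR1 and LRP2. The 7 hepatocyte markers summed to 14.2 and 13.8 CPM on day 16, 59.9 and 49.0 on day 23, 302 and 286 on day 31, 362 and 174 on day 38, and 584 and 569 on day 45. SERPINA1 was the most abundant, at 0.127 and 0.369 CPM on day 16 and 335 and 272 CPM on day 45, and ALB reached 119 and 95.8 CPM. The markers moved differently from each other. Over the whole course 4 of the 7 rose and none fell, beside 12.9% of all genes higher and 11.7% lower. On day 31 against 23, 5 rose and none fell (all genes, 1.58 and 0.666%), where DESeq2 called 3. From day 38 to 45, 3 rose and none fell (all genes, 4.85 and 6.35%). The day 31 count was lower without day 23 replicate 2 or day 31 replicate 2. That of day 45 against 38 was lower without day 38 replicate 2. On day 38 against 31 SERPINA1 rose while TTR, APOA1 and APOB fell, with log2 fold changes of -3.73, -2.55 and -1.41. All genes gave 8.8% higher and 6.23% lower at that step. Without day 31 replicate 2 or day 38 replicate 1, the list had 2 calls in place of 4. TTR, a transport protein of thyroid hormone, held 57.5 and 54.0 CPM on day 31 and 0.581 and 9.83 on day 45. The sums of days 31 and 38 overlapped, and ASGR1 had its lowest daily mean on day 31. ASGR2, the other subunit of the asialoglycoprotein receptor, did not exceed 2.40 CPM in any library. Of the 5 proximal tubule markers, CUBN was the most abundant at 14.5 to 44.8 CPM, SLC22A6 was at or under 3 counts throughout and SLC34A1 was at 0 in both day 45 libraries. The part of these cell types in the receptor values was not tested.

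Promoter sequences were looked up to show what lies before the starts of genes that moved differently, and the RefSeq promoter table (GRCh38.p14) held 4 of the 10 genes, CTSD, CTSL, LRP2 and SORL1. TG, CTSB, CTSK, CTSS, LGMN and ASGR1 are named only. The windows run from 250 bases before the start to 50 bases after it, and were searched on both strands for CACGTG, the core of the E-box that lysosomal regulators of the TFEB family bind, and for TGACGTCA and its shorter form TGACG, the cAMP response element. CACGTG was found in CTSD and SORL1 and in 7.43% of 27305 promoters. TGACGTCA was found in none of the 4 genes and in 1.98% of promoters, and TGACG in CTSD and SORL1 and in 25.0%. The TGACG of CTSD does not lie in the 250 bases before the start, which are the part printed. The 250 bases before the start are given 5′ to 3′ on the strand of the gene for CTSD (chr11:1763928-1764177, minus), SORL1 (chr11:121452064-121452313, plus) and LRP2 (chr2:169362535-169362784, minus), with CACGTG, and in SORL1 the TGACG that overlaps it, in capitals. The E-box lies 47 bases before the start in CTSD and 177 bases before it in SORL1, and LRP2 has no match to these letters in its window. These matches describe the letters alone, and CTSD rose while SORL1 fell between days 16 and 45.
CTSD: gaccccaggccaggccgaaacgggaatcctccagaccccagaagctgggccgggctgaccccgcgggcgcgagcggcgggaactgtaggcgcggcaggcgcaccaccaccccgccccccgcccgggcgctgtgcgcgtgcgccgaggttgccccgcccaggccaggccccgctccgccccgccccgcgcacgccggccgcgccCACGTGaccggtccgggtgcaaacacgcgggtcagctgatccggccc
SORL1: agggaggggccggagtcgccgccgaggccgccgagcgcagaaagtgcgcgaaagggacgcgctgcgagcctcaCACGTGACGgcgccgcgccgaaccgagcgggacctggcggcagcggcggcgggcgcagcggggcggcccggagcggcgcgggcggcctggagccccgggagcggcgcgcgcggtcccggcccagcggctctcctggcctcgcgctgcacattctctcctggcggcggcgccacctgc
LRP2: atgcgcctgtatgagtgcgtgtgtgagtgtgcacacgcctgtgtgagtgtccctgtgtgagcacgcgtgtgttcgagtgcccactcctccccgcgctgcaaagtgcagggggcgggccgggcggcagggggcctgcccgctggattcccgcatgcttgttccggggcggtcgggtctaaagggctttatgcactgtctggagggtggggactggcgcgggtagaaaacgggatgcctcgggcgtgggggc

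Levels of different genes were compared as TPM (counts per exon length, scaled to the same sum in every library) within libraries only, because RN7SK, a short nuclear RNA, took 22.5 to 37.95% of the TPM total and this share differed between libraries. The scales part between days: CTSB held 127 and 147 TPM on day 31 and 140 and 151 TPM on day 38, which overlap, where its CPM had no overlap. They can part with RN7SK left out as well. The daily means of CTSD on days 31 and 38 were then 66.8 and 35.6 TPM, beside 106 and 98.3 CPM. For LGMN they were 44.1 and 32.8 TPM, beside 47.2 and 61.3 CPM, while CTSB rose on both scales (186 and 220 TPM). On day 16 LGMN was the most abundant of the 10 at 43.3 ± 6.09 TPM (SD, n = 2), followed by CTSD at 21.6 ± 6.71, CTSB at 21.4 ± 4.70 and SORL1 at 20.5 ± 2.73, which did not differ beyond their spread. TG was 9th at 1.78 ± 0.066 TPM, ahead of CTSS alone and near CTSK at 2.29 ± 0.727. On day 45 TG stood first at 1034 ± 108 TPM, CTSB second at 151 ± 18.0, and CTSD at 38.7 ± 0.560 and LGMN at 37.7 ± 0.092 followed. LRP2 at 16.6 ± 0.648 and CTSL at 15.1 ± 1.48 overlapped within that day, as did SORL1 at 6.67 ± 1.83 and ASGR1 at 5.80 ± 0.061. CTSK at 1.83 ± 0.772 TPM was last. TG was 6.85 times as abundant per length as CTSB on day 45, a ratio that was 3.57 with the longest transcript of each gene as its length. With that length LGMN stayed first and CTSB came second on day 16, and LGMN came before CTSD on day 45, with TG and CTSB first and second.

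The make-up of the protease set shifted toward cathepsin B. CTSB made up 21.3 and 20% of the summed TPM of the 6 proteases on day 16, 48.7 and 45.7% on day 23, 54.9 and 54.7% on day 31, 73.1 and 70.9% on day 38, and 59.3 and 62.5% on day 45. Its share was lower on day 45 than on day 38 with no overlap. Per transcript of the 6 proteases together there were 0.0157 and 0.0191 TG transcripts on day 16, 0.210 and 0.185 on day 31, 3.16 and 3.14 on day 38, and 4.10 and 4.23 on day 45. With the longest transcripts as lengths these ratios were 0.0115 and 0.0140 on day 16 and 2.55 and 2.59 on day 45. Against the 3 receptors the TG ratio ran from 0.0548 and 0.0637 on day 16 to 35.2 and 36.02 on day 45. The TG ratio to both groups of genes thus grew with no overlap between the first and the last day.

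Step by step, 3 of the 10 genes were higher (TG, CTSB and CTSD) and 2 lower (LGMN and SORL1) on day 23 than on day 16, against 5.6% of all genes higher and 5.33% lower. Between days 31 and 23, edgeR called 0 of the 10, with 1.58% of all genes higher and 0.666% lower. CTSB and SORL1 had an unadjusted p under 0.05 at that step, and DESeq2 called those 2. On day 38 against 31, 3 were higher (TG, CTSB and LRP2) and 1 lower (CTSL), against backgrounds of 8.8 and 6.23%. On day 45 against 38, TG, CTSD, CTSL and LGMN were higher and SORL1 lower, against 4.85 and 6.35%. Without day 38 replicate 1, day 38 replicate 2 or day 45 replicate 1, only TG was left of these 5. Over the whole course, day 45 against 16, TG, CTSB, CTSD, CTSS and LRP2 were higher and SORL1 lower, against 12.9 and 11.7%, and these 6 passed without any 1 library. The median log2 fold change of the 10 genes was 0.05, 0.07, 0.53 and 0.59 at the successive steps, beside medians of all genes tested between -0.02 and 0.

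**Figure D2:**
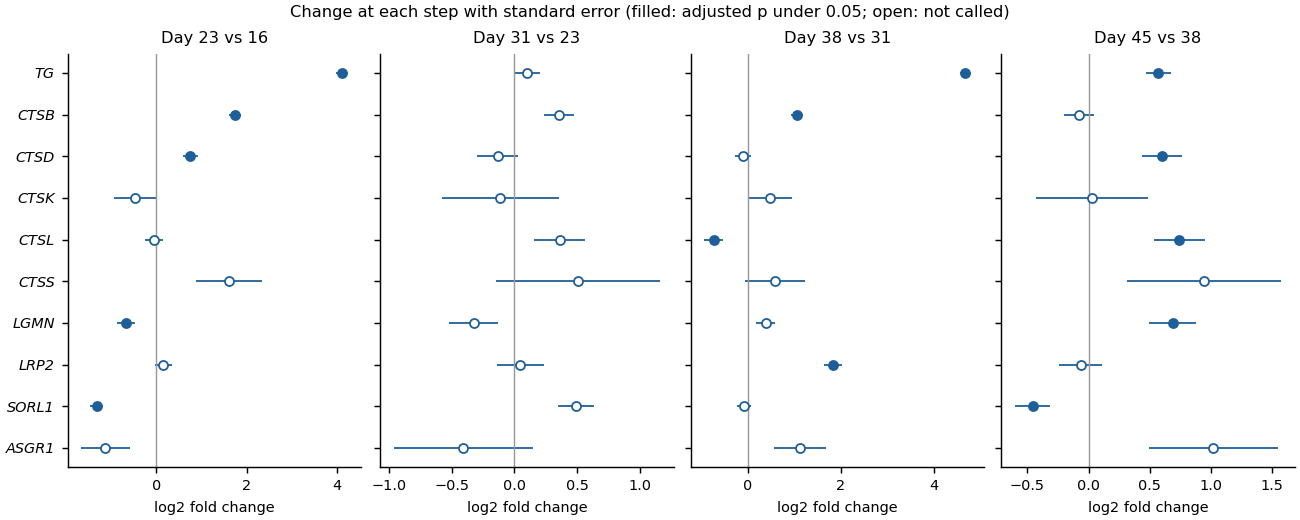
Log2 fold change with its standard error for the 10 genes at each of the 4 steps between neighbouring days, with a separate scale in each panel. Filled points passed edgeR's test at an adjusted p under 0.05. TG passes at 3 steps, CTSB on days 23 and 38, LRP2 on day 38 alone, and no gene on day 31 against 23.

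The scaling of the libraries bears on the day 38 step. With library totals alone, the median of all genes on day 38 against 31 was -0.20 on the log2 scale, and 33.3% of the calls were higher, compared with 58.5% with TMM factors. The calls of the 10 genes at that step were 3 higher and 1 lower under both.

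Of 16 other cathepsins and lysosomal peptidases 15 were tested, and 6 fell and 1 rose on day 38 against 31, the step at which CTSB rose, with a median of -0.82 (all genes, 0), beside 6.23% of all genes lower and 8.8% higher. The 6 were CTSA, a serine carboxypeptidase that protects other lysosomal enzymes (-1.39), CTSO (-1.34), CTSF (-1.33), CTSZ (-0.96), CTSH, an aminopeptidase (-0.82), and CTSC, a dipeptidyl peptidase (-0.74). CPQ, a carboxypeptidase, rose by 2.23. The same counts were found with library totals and with upper-quartile factors, while 2 fell without day 38 replicate 2. CTSA stood at 29.0 and 42.1 CPM on day 31, 15.2 and 11.9 on day 38 and 40.1 and 43.0 on day 45, so that its libraries dipped on day 38 as those of CTSL did. CTSA and TPP1, a tripeptidyl peptidase, rose from day 38 to 45, by 1.61 and 0.83. At that step the list had 2 calls with edgeR and 3 with DESeq2, library totals or upper-quartile factors, and 4 without either day 16 library. On day 23 against 16, DPP7 alone rose, by 1.28, and 0 to 3 of the list were called as libraries were left out, with other counts than 1 without day 16 replicate 1 and day 23 replicate 2. None of the 15 was called on day 31 against 23. All genes gave 5.6% higher and 5.33% lower on day 23, 1.58 and 0.666% on day 31, and 4.85 and 6.35% on day 45 against 38. The 1 call of day 23 is therefore near the background. Over the whole course, 4 rose (CTSA, TPP1, CPQ and DPP7) and 4 fell (CTSC, CTSF, CTSO and CTSZ), with a median of -0.50, beside 12.9 and 11.7% of all genes. Without day 16 replicate 2 or day 45 replicate 2 the 8 calls became fewer by over 1.5 times, to as few as 4.

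Cystatins and serpins are the inhibitors of the cysteine cathepsins. Of 13 listed, 8 were tested, and neither edgeR nor DESeq2 called any at a single step. CSTB, the cytosolic cystatin B, went from 51.6 and 61.2 CPM on day 16 to 90.6 and 110 CPM on day 45, and CST3, the secreted cystatin C, from a mean of 22.2 to one of 40.3 CPM. Both rose over the whole course, by 0.83 and 0.86 on the log2 scale. edgeR called these 2 of the 8 at that comparison and none lower, where 12.9% of all genes were higher and 11.7% lower. The count was 1 without day 45 replicate 1 and reached 3 with other libraries left out and with DESeq2. The median of the 8 was 0.75, also with the 4 genes that had no read on one of the days set at their bound.

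Genes of endocytosis moved singly. Among 16 endocytic receptors, adaptors and chaperones, 3 rose on day 23, 1 rose and 3 fell on day 31, 4 rose and 1 fell on day 38, and 2 rose and 1 fell on day 45, each against the day before. The shares of all genes at these steps were 5.6, 1.58, 8.8 and 4.85% higher and 5.33, 0.666, 6.23 and 6.35% lower, so that 1 called gene of the list in a direction is near the background at most steps. Over the whole course 7 rose and 2 fell, with a median of 0.76, beside 12.9 and 11.7% of all genes and a median of 0. DAB2, a clathrin adaptor that binds the tail of megalin, held 133 and 105 CPM on day 16, 104 and 106 on day 23, 60.6 and 54.7 on day 31, 22.5 and 20.6 on day 38, and 20.2 and 12.9 on day 45. It fell by 1.42 on the log2 scale on day 38 against 31 (edgeR adjusted p = 3.4e-06), the step at which LRP2 rose, and by 2.86 over the whole course. CUBN, the cubilin partner of megalin, held 15.7 and 18.8 CPM on day 16, 36.0 and 38.1 on day 23, 16.6 and 14.5 on day 31, 26.2 and 23.6 on day 38, and 35.1 and 44.8 on day 45. SORCS1, of the same family as SORL1, alternated at each step, with 39.3 and 31.8, then 147 and 176, then 53.9 and 57.3, then 152 and 143, then 63.4 and 85.7 CPM, and all 4 of its steps passed the test. LRPAP1, the chaperone of megalin, and LRP1 were called in none of the 5 comparisons between days. CLTC, the clathrin heavy chain, and RAB7A of late endosomes rose over the whole course by 0.76 and 1.07. With library totals, 3 rose and 3 fell on day 38, and the count called at that step ran from 2 to 6 as each library was left out, moved most by those of days 31 and 38. The counts of day 31 against 23 and of day 45 against 38 each ran from 1 to 5, being lower without day 23 replicate 2 or either day 31 library at the first of these steps and without day 38 replicate 2 or day 45 replicate 2 at the second, which had 5 calls without either day 16 library.

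Of 29 lysosomal genes outside the proteases that were tested, 11 were higher and 1 lower on day 45 than on day 16, with a median of 0.54, beside 12.9 and 11.7% of all genes and a median of 0. LAMP1, a main membrane glycoprotein of lysosomes, went from 56.4 and 50.5 to 109 and 114 CPM, with its called increase on day 23 (log2 1.27). ATP6V0D1, a subunit of the proton pump, rose by 1.93 over the course, and TFE3, a transcription factor of lysosome biogenesis, by 0.77. MITF, of the same factor family, fell by 1.41, and TFEB was at 1.14 to 3.72 CPM on daily means and was not called. At the single steps, 5 rose and 2 fell on day 23, none was called on day 31, 4 rose and 3 fell on day 38, and 4 rose on day 45. Beside 5.6 and 5.33, 1.58 and 0.666, 8.8 and 6.23, and 4.85 and 6.35% of all genes higher and lower at these steps, the day 38 counts in particular lie close to the background. With library totals the day 38 split was 2 and 6, and leaving out 1 library of day 31 or 38 took the count called at that step from 7 to as few as 2. Without day 23 replicate 2, the day 23 count of 7 became 4. The day 45 count of 4 became 1 without either day 38 library or day 45 replicate 1, and 2 without day 45 replicate 2.

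Of 10 chaperones and oxidoreductases that fold thyroglobulin in the endoplasmic reticulum, 8 rose on day 38 against 31 and none fell, beside 8.8% of all genes higher and 6.23% lower. Their median was 0.73 (all genes, 0), and the counts were 8 and 0 with library totals as well. HSPA5 (BiP), the main chaperone of the compartment, stood at 315 and 290 CPM on day 31 and at 870 and 799 CPM on day 38, which is 1.46 higher in log2 terms (edgeR adjusted p = 1.2e-11). HSP90B1 rose by 1.00 and the lectin chaperones CALR and CANX by 0.85 and 0.62. ERP29 and SDF2L1 were not called, at -0.32 and 0.01. On day 23, when TG rose by 4.10, edgeR called CANX alone of the 10, at 0.63, and HSPA5 was at -0.13 (edgeR adjusted p = 0.551). PDIA4 fell by 0.69 from day 38 to 45, with no call of the list there without day 38 replicate 1 and 2 calls without either day 16 library. The day 23 count of 1 became 3 and 2 without day 16 replicate 1 and 2, 1 higher and 1 lower with upper-quartile factors, and 2 higher and 1 lower with DESeq2. None was called on day 31 against 23. Over the whole course 6 rose and none fell, with a median of 1.00, beside 12.9% of all genes higher and 11.7% lower. The shares of all genes were 5.6 and 5.33% on day 23, 1.58 and 0.666% on day 31, and 4.85 and 6.35% on day 45 against 38. The single edgeR calls of the list on days 23 and 45 are thus near the background.

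Of the 12 genes listed that iodinate thyroglobulin and release hormone, some were called at each step but day 31 against 23. DUOX2, a dual oxidase that makes the hydrogen peroxide for iodination, followed the steps of TG, with 2.41 on day 23, 2.71 on day 38 and 0.59 on day 45, all called, the last near the threshold (edgeR adjusted p = 0.0478). Without day 38 replicate 2 or day 45 replicate 2, DUOX2 was not called at that last step, and the list had 2 calls in place of 4. DIO2, a deiodinase, rose on days 23 and 38 by 2.38 and 1.72. SLC5A5, the sodium iodide symporter, reached 13.4 and 17.3 CPM on day 45. IYD, which recovers iodide from iodotyrosines after thyroglobulin is digested, fell by 1.33 from day 38 to 45. Of the 12 genes, 3 rose and 3 fell on day 23, none was called on day 31, 5 rose on day 38, 2 rose and 2 fell on day 45, and 8 rose and 3 fell over the whole course, with a median of 2.61. All genes gave 5.6% higher and 5.33% lower on day 23, 1.58 and 0.666% on day 31, 8.8 and 6.23% on day 38, 4.85 and 6.35% on day 45, and 12.9 and 11.7% over the whole course. The day 38 count ran from 3 to 7 as libraries were left out, with 3 without day 31 replicate 1.

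The labelled cell type was checked against 6 thyroid genes, of which TG is given above. On day 45, NKX2-1 held 58.1 and 66.7 CPM, PAX8 536 and 500, FOXE1 204 and 218, HHEX 149 and 162, and TSHR, the TSH receptor, 120.0 and 120.5. All were present on every day. For NKX2-1 the sort on its locus had set this in advance, and PAX8 had been switched on as a transgene, so their presence is a weak check. TSHR rose from 17.5 and 8.86 CPM on day 16, and NKX2-1, PAX8 and FOXE1 fell over the whole course, by 0.48, 0.33 and 1.86 on the log2 scale, and without day 16 replicate 1 the 6 calls of the list became 3. From day 38 to 45, as TG rose, NKX2-1, FOXE1 and HHEX fell, by 1.20, 0.82 and 0.86. With TG, 3 of the 6 genes were higher and 3 lower over the whole course, beside 12.9 and 11.7% of all genes. On day 45 against 38, 1 was higher and 3 lower, beside 4.85 and 6.35%.

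Markers of other cells that could pass the sort were followed too. The 7 mesenchymal markers, led by COL3A1, summed to 912 and 1122 CPM on day 16, 1688 and 1683 on day 23, 1508 and 1772 on day 31, 4275 and 4507 on day 38, and 4510 and 3615 on day 45, and all 7 rose over the whole course. On day 38 against 31, when TG rose, COL1A1, COL1A2, COL3A1 and PDGFRA rose and LUM fell (log2 -1.23). On day 23 against 16, COL3A1, DCN and LUM rose and COL1A2 fell. From day 38 to 45, when CTSD, CTSL and LGMN rose, PDGFRA, DCN and LUM rose and none of the 7 fell. All genes gave 12.9% higher and 11.7% lower over the whole course and 5.6 and 5.33% on day 23. The shares were 8.8 and 6.23% on day 38 against 31 and 4.85 and 6.35% on day 45 against 38. The 5 airway and goblet cell markers, led by MUC5B, summed to 16.1 and 14.2 CPM on day 16, 2.88 and 6.86 on day 23, 11.97 and 27.2 on day 31, 70.9 and 54.0 on day 38, and 147 and 94.9 on day 45. The 5 cardiovascular markers, led by DES, summed to 7.99 and 3.20 CPM on day 16, 13.9 and 11.4 on day 23, 9.11 and 14.3 on day 31, 73.9 and 75.4 on day 38, and 67.6 and 58.0 on day 45. MUC5AC, MUC5B, DES and MYL7 rose on day 38 against 31, the step at which TG, CTSB and LRP2 rose. The airway and goblet list had 1 call there without day 31 replicate 1 and with DESeq2. From day 38 to 45 edgeR called KRT5 and MUC5B higher and MUC5AC lower, while DESeq2 called 1 higher and 1 lower. MUC5AC went from 29.7 and 21.9 to 0.435 and 2.07 CPM. The part of these other cells in the values of the 10 genes was not tested.

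Genes with the most similar course were sought for the genes that changed by at least 4-fold between daily means, by the mean absolute difference in centred log2 CPM over the 10 libraries among 13115 genes. For TG these were KCNJ15, a potassium channel gene (0.44), FNDC1 (0.66) and PTCSC1, which lies within TG (0.75), where the median candidate differed by 3.06. The genes most like CTSB were NFIA, a transcription factor gene (0.14), TSHR (0.24) and TTYH2 (0.25), with a median of 0.99. NFIA held 16.9 CPM on average on day 16 and 109 CPM on day 45, and TSHR 13.2 and 120 CPM. SYT13 (0.14), SNORD13 (0.20) and DOCK3 (0.21) were nearest to LRP2 (median 0.93). For CTSS they were S100A14 (0.35), RNF128 (0.43) and DCN, a mesenchymal marker of the list above (0.44, median 1.23), and for ASGR1 they were PDGFRA, another mesenchymal marker (0.22), MUC20 (0.29) and PNPLA7 (0.29, median 0.79). These distances describe the 10 libraries, which share days and media.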

How the data were processed

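Sorted cells went into low-input libraries and were read from both ends. The authors removed adapters with Trimmomatic, used HISAT2 on GRCh38 and HTSeq, and deposited raw counts per gene, not normalized. Tool versions and the strand setting are not given in the sources used here. Each library was its own replicate, as the study names 2 biological replicates a day, each a pool of several wells. Whether the 2 came from separate differentiations is not stated for these libraries, so the standard errors may not cover the spread between differentiations. Replicates differed by more than sampling noise (chi-square per degree of freedom 8.38 to 13.7). The reads carry no stated molecular identifiers, so floors cover counting error only.

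CPM with TMM factors and edgeR 4.0.16 quasi-likelihood tests (R 4.3.3, limma 3.58.1) were computed from the counts of the 21014 genes that had 5 or more counts in 2 or more libraries, with 1 mean per day (5 residual degrees of freedom) and Benjamini-Hochberg adjustment at 0.05. Standard errors are approximate. TPM used exon lengths from GENCODE 44, in which 25755 of 28265 symbols matched. The procedure was tested on simulated data, where the share of false calls was somewhat above nominal. Recovery was read as calls of genes given a large fold change, and it was high for all but genes with few counts. Recovery of smaller fold changes, and how closely their size was estimated, are not reported here. The criterion for recovery was revised after a first draw fell short of it.

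The 10 genes and the lists were chosen with earlier results of these data known. Lists are described by counts and medians beside all genes. Named genes are the 10 genes, genes of the lists, the 3 of most similar course, and genes inside TG. Alternatives were DESeq2 1.42.0, other scalings and filters, only the libraries compared, a replicate block, each library left out, and other lengths for TPM. Values of some single genes of the lists are not reported here.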

Additional observations from a re-analysis of the deposited data

How the results depend on the processing

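The calls of TG at days 23, 38 and 45, of CTSB and SORL1 at day 23, of CTSD at day 23, and of CTSB and LRP2 at day 38 were the same under all 17 alternatives, as were the 6 calls of day 45 against 16. The 17 alternatives did not test changes in TPM. DESeq2 called 2 of the 10 genes at day 31 against 23 (edgeR 0), and TG over CTSB in TPM at day 45 was 3.57 with the longest transcript. Leaving out RN7SK, added after seeing the data, rescales all genes of a library alike and cannot test that ratio. Leaving out each library, where the lone library of a day is assumed to vary like the others, gave 4 to 6, 0 to 1, 3 to 4, 1 to 5 and 6 of the 10 genes at day 23 against 16, 31 against 23, 38 against 31, 45 against 38 and 45 against 16, and 7 to 9 over any day. All genes called ran from 1350 to 2383 (2296 with all libraries), 206 to 646 (473), 1764 to 3613 (3160), 1166 to 2815 (2353), 3969 to 5222 (5175) and 6331 to 7762 (7628) in the same order. For all genes, the counts fell by over 1.5 times without either day 23 library (1461 and 1350) at the first step, without either library of day 23 or of day 31 (206 to 288) at the second, without day 31 replicate 1 (1973), day 38 replicate 1 (1764) or day 38 replicate 2 (1842) at the third, and without day 38 replicate 1 (1300), day 38 replicate 2 (1166) or day 45 replicate 1 (1568) at the fourth, and fewer libraries in a day is part of that alternative. Differences that were not called changed sign as libraries were left out: at day 23, CTSL (-0.29 to 0.15) and LRP2 (-0.12 to 0.52); at day 31, TG (-0.0065 to 0.21), CTSK (-0.34 to 0.16), CTSS (-0.14 to 1.75), LRP2 (-0.19 to 0.24) and ASGR1 (-0.97 to 0.51); at day 45 against 38, CTSB (-0.18 to 0.036), CTSK (-0.30 to 0.30) and LRP2 (-0.18 to 0.041); at day 45 against 16, CTSK (-0.40 to 0.18) and LGMN (-0.082 to 0.21, and -0.028 with library totals). Deviations of same-numbered libraries correlated at -0.032 to 0.0199, which gives no sign of pairing by number but cannot exclude it. The replicate block gave the same counts of the 10 genes (5, 0, 4, 5, 6 and 9). It called more of all genes than the fit without it, at 2703, 678, 3472, 2691, 5460 and 8239. Counts of a few reads, as for CTSS at day 16, limit what depth can show.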
